A study of Drosophila melanogaster with 2 samples.

Results

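The vacuolar ATPase (V-ATPase) genes of Drosophila were described across the cells of the larval brain. The members were all gene rows of the count tables whose symbol starts with Vha, which gave 33 of 17473 rows. All 33 are annotated as V-ATPase subunits or accessory proteins, and VhaM8.9 carries the name ATP6AP2 in the current annotation. Levels were taken over the cells that the deposited metadata list, from 2 single-cell libraries of brains of larvae in the third instar. The MeOH library held methanol-fixed cells of 7 inbred lines of the Drosophila Genetic Reference Panel (DGRP), numbered 45, 136, 382, 409, 502, 639 and 761, mixed in 1 preparation. The fresh library held unfixed cells of a hybrid based on DGRP-551, which the metadata call line M1. All these animals were larvae of laboratory strains without a stated transgene. The number of brains behind each line is not given in the sources used here, and methanol fixation stands in the protocol given for each library, so the groups follow the titles and the metadata.

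The V-ATPase is a rotary proton pump that spends ATP to acidify vesicles, endosomes and lysosomes. A soluble part, V1, holds the catalytic A and B subunits, a rotor of D and F, and the stator and regulatory subunits C, E, G and H. A membrane part, V0, carries protons through a ring of c and c'' subunits beside the large a subunit, with d and e as smaller partners. In neurons the proton gradient made by this pump loads neurotransmitters into synaptic vesicles, and in all cells it serves lysosomal breakdown.

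The metadata listed 2715 MeOH cells with 13232791 UMIs and 2341 fresh cells with 19752322 UMIs, where a UMI (unique molecular identifier) marks 1 captured transcript. Median UMIs per cell were 3564 in the MeOH library and 6598 in the fresh library. The Vha genes together took 0.281% of the UMIs in the MeOH library and 0.311% in the fresh library, a median of 8 and 16 UMIs per cell. 24 MeOH cells and 5 fresh cells had no Vha UMI. The listed cells of both libraries shared 11 barcodes. Levels below are UMIs per 1000000 UMIs of the cells counted (CPM) with exact 95% Poisson intervals in parentheses, and intervals and limits cover counting error only. With this chemistry a transcript gives a UMI near its 3′ end whatever its length, and capture may differ between genes, so an order of genes is an order of captured transcripts.

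**Figure D1:**
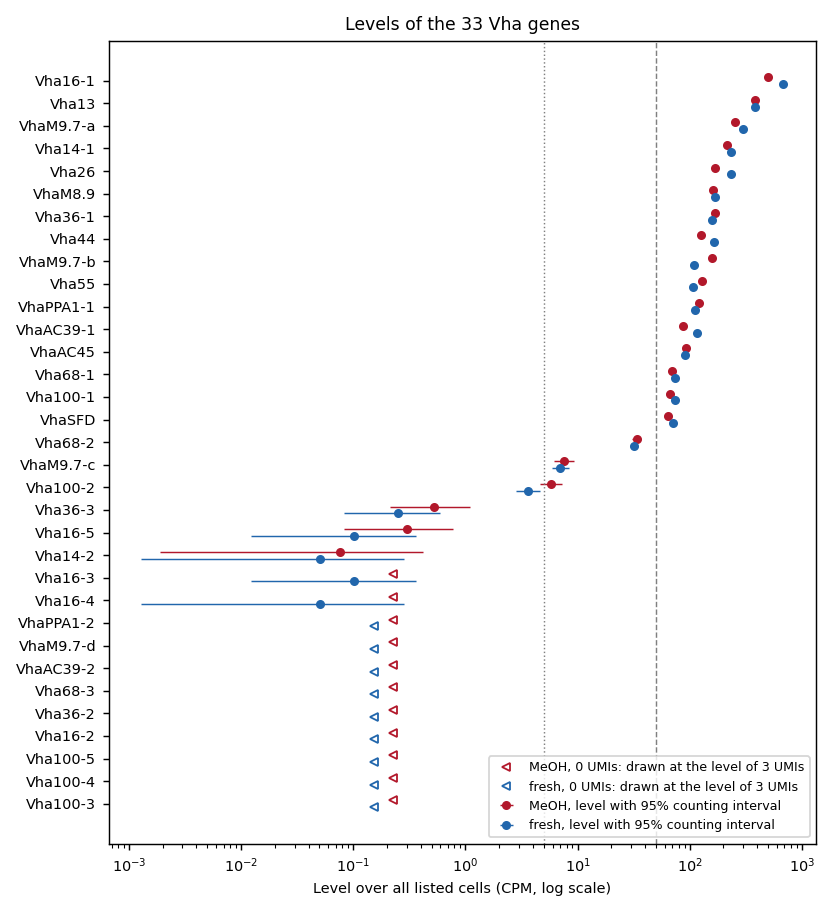
Level of each of the 33 Vha genes over all listed cells, in CPM on a log axis, for the MeOH library (red) and the fresh library (blue), with 95% counting intervals. The dashed line marks 50 CPM and the dotted line 5 CPM. Open triangles stand at the level of 3 UMIs for genes without a UMI. The 16 broad genes lie between 63.6 and 678 CPM, and 14 genes lie below 1 CPM.

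The members fell into genes that were abundant in both libraries and genes that were almost absent. 16 genes reached 50 CPM in both libraries and are called broad. 14 genes stayed under 5 CPM in both, and 3 lay between. The near-zero group had 12 UMIs in the MeOH library and 11 UMIs in the fresh library over all its genes, against 36609 and 60568 UMIs for the broad group. The groups are far apart, since the lowest broad gene had 63.6 CPM and the highest near-zero gene 0.529 CPM in the MeOH library.

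Every V1 subunit type had 1 broad gene. Vha13, the G subunit of the stator, was the highest of V1 with 386 CPM (375 to 396) in MeOH cells and 379 CPM (370 to 387) in the fresh library. Vha14-1, the rotor subunit F, had 216 and 233 CPM in the MeOH and fresh libraries. Vha26, the stator subunit E, had 169 CPM in the MeOH library and 232 CPM in the fresh library. Vha36-1, the rotor subunit D, and Vha55, the nucleotide-binding B subunit, had 168 and 128 CPM in the MeOH library and 157 and 107 CPM in the fresh library. Vha44, the C subunit that links both parts, had 126 CPM in the MeOH library and 165 CPM in the fresh library. The lowest broad V1 genes were Vha68-1, a catalytic A subunit, and VhaSFD, the regulatory H subunit. Vha68-1 had 69.7 CPM (65.3 to 74.3) in MeOH cells and 74.5 CPM (70.7 to 78.4) in the fresh library. VhaSFD had 63.6 CPM (59.4 to 68.1) in MeOH cells and 70.7 CPM (67.1 to 74.5) in the fresh library.

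In V0 the proton-carrying ring subunit Vha16-1 was the highest of all members, with 498 CPM (487 to 511) in MeOH cells and 678 CPM (666 to 689) in the fresh library. VhaPPA1-1, the c'' subunit of the same ring, had 122 and 112 CPM in the MeOH and fresh libraries. VhaAC39-1, the d subunit between rotor and ring, had 87.0 CPM in the MeOH library and 117 CPM in the fresh library. Vha100-1, the a subunit known from neuronal synapses of flies, had 66.3 and 74.5 CPM in the MeOH and fresh libraries. The small e subunit was the only type with a pair of broad genes. VhaM9.7-a had 253 CPM in the MeOH library and 298 CPM in the fresh library, and VhaM9.7-b had 158 and 109 CPM. The accessory proteins VhaM8.9 and VhaAC45 had 162 and 93.0 CPM in the MeOH library, and 170 and 90.1 CPM in the fresh library.

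The 3 intermediate genes are each a paralog of a broad gene. Vha68-2, a second catalytic A subunit, had 33.8 CPM (30.7 to 37.1) in MeOH cells and 31.8 CPM (29.4 to 34.4) in the fresh library. VhaM9.7-c had 7.63 CPM (6.22 to 9.27) in MeOH cells and 7.04 CPM (5.92 to 8.31) in the fresh library. Vha100-2, a further a subunit, had 5.82 CPM (4.59 to 7.27) in MeOH cells and 3.65 CPM (2.85 to 4.59) in the fresh library. VhaM9.7-c overlaps the gene Teh2 on the same strand, so its reads could not be separated from those of Teh2 by position alone. Vha44, Vha100-1 and Vha100-2 overlap genes on the opposite strand, and whether counting used strand is not given in the sources used here.

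9 of the 14 near-zero genes had 0 UMIs in both libraries, which allows a level of up to 0.227 CPM in the MeOH library and 0.152 CPM in the fresh library (3 UMIs of the total). These were Vha36-2, Vha68-3, Vha100-3, Vha100-4, Vha100-5, Vha16-2, VhaPPA1-2, VhaAC39-2 and VhaM9.7-d. The other 5 had single UMIs. Vha36-3 had 7 UMIs in 7 MeOH cells and 5 UMIs in 5 fresh cells. Vha16-5 had 4 MeOH and 2 fresh UMIs, Vha14-2 had 1 UMI in each library, Vha16-3 had 0 MeOH and 2 fresh UMIs, and Vha16-4 had 0 MeOH and 1 fresh UMI. All 14 are paralogs of a broad gene by subunit type, and no subunit type was served by near-zero genes alone. Among the genes without a UMI, Vha100-3, Vha100-4, Vha100-5, Vha16-2 and VhaPPA1-2 overlap genes on the opposite strand. The open point of strand in counting, given above, holds for these genes too.

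Genes of very different level stand side by side in the genome. On chromosome arm 2L (build dm6), Vha68-2 spans 12974322 to 12978607 and Vha68-3 starts 178 bases behind it on the same strand, at 12978786. Vha68-1 lies 19476 bases further, from 13000770 to 13004107 on the opposite strand. These 3 A subunit neighbours were intermediate, near zero and broad. On arm 3R, VhaPPA1-2 at 14899606 to 14900277 ends 2052 bases before VhaPPA1-1, and Vha100-4 ends 517 bases before Vha100-2. Near-zero genes had a median of 2 exons and 6 of the 14 had a single exon, against a median of 3 exons and 2 of 16 with a single exon among the broad genes.

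Cells were grouped by the deposited annotation. The glial class held the cells named CTX, AST and ENS, which carried the glial markers, and all neuroblast (NB) and ganglion mother cell (GMC) names formed 1 class of dividing precursors. The numbered clusters, G-KC and DCN were neuronal by their markers. G-KC and clusters 3 and 33 reached at least 1.5 times the neuronal level in at least 4 of 6 synaptic markers and are called mature-like neurons, and the rest are other neurons. There were 103 glia, 231 mature-like neurons, 1518 other neurons and 303 neuroblasts and GMC in the MeOH library, and 77, 186, 1538 and 361 in the fresh library. Median depths in the same order were 4816, 5258, 3208 and 3803 UMIs in the MeOH library and 8822, 10231, 6377 and 6684 UMIs in the fresh library. All 7 neuronal markers (elav, nSyb, Syt1, brp, cpx, Snap25 and Syx1A) were detected in these classes, with summed levels of 490 CPM in glia, 4204 in mature-like neurons, 2406 in other neurons and 1176 in neuroblasts and GMC of the MeOH library. The 7 glial markers summed to 2741, 111, 88.9 and 291 CPM in the same order. SUR, Lamina, Hey+ Neurons and the unnamed clusters 1 and 31 were kept apart. The classes come from the authors' clustering of the same counts, so differences between them are not independent of how the cells were sorted into clusters.

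**Figure D2:**
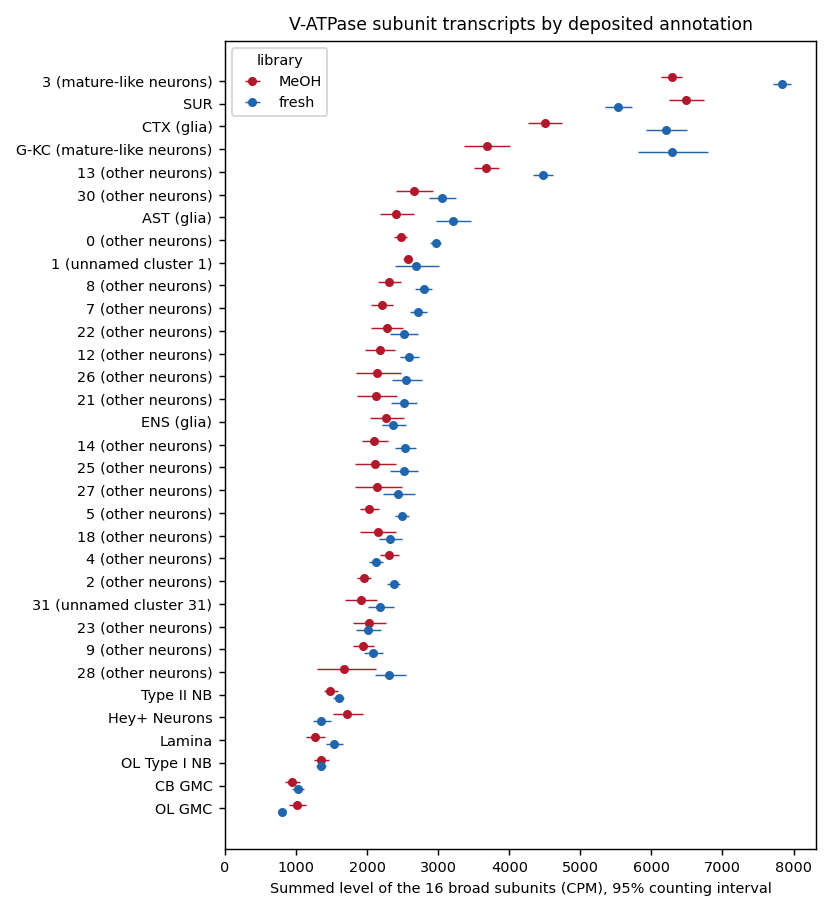
Summed level of the 16 broad subunit genes in CPM for each deposited annotation of at least 30 cells, with 95% counting intervals, for the MeOH library (red) and the fresh library (blue). Cluster 3, SUR and CTX lie between 4498 and 7833 CPM in both libraries, and both GMC names lie at the bottom, between 804 and 1021 CPM.

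Summed over both libraries and among annotations of at least 30 cells, transcripts of the broad subunits took the largest shares of UMIs in cluster 3, SUR and CTX, and the smallest in GMC. In cluster 3 they summed to 6284 CPM (6134 to 6436) in MeOH cells and 7833 CPM (7706 to 7961) in the fresh library. SUR had 6487 CPM (6245 to 6736) in MeOH cells and 5531 CPM (5342 to 5725) in the fresh library. In the MeOH library SUR and cluster 3 overlapped in their counting intervals, whereas in the fresh library cluster 3 lay above SUR. CTX had 4498 CPM in the MeOH library and 6206 CPM in the fresh library, and G-KC had 3681 and 6290 CPM, so that in the fresh library G-KC stood above SUR and level with CTX within counting error. The other glial names were lower, with 2412 MeOH and 3212 fresh CPM in AST, and 2270 MeOH and 2370 fresh CPM in ENS. The neurons outside the mature-like class, defined above as other neurons, had 2316 MeOH and 2734 fresh CPM together. Cluster 13 stood above every other cluster of the other neurons that held at least 30 cells, with 3675 CPM (3500 to 3857) in MeOH cells and 4474 CPM (4340 to 4610) in the fresh library.

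At the low end, GMC of the optic lobe (OL GMC) had 1015 CPM (907 to 1133) in MeOH cells and 804 CPM (747 to 863) in the fresh library. GMC of the central brain (CB GMC) had 940 CPM (839 to 1049) in MeOH cells and 1021 CPM (938 to 1110) in the fresh library. Type II neuroblasts had 1484 MeOH and 1597 fresh CPM, and the neuroblasts named OL Type I NB had 1357 MeOH and 1353 fresh CPM. Across the 33 annotations with at least 30 cells, the 16 broad genes did not all follow the sum to the same degree. Spearman's rho with the sum was highest for Vha14-1 (0.90), Vha16-1 (0.90) and Vha44 (0.90) and lowest for VhaM9.7-a (0.43) and VhaM9.7-b (0.30), as a description, since each gene is part of the sum.

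All 16 broad subunits were called higher in mature-like neurons than in other neurons, 13 of them in each of the 7 lines. The median fold change over the 16 was 1.49 on the log2 scale, with a range of 0.38 to 2.03, beside a median of 0.0027 over all 3988 genes tested. Counts were summed per DGRP line and class in the MeOH library and compared over 7 lines with edgeR's quasi-likelihood test, with the line as block and Benjamini-Hochberg adjustment over all genes tested. Of all genes, 40.7% were called, 22.6% as higher, at an adjusted p under 0.05. The lines share 1 library, so these p-values measure the spread between lines within it. The other 17 members were too low for this test.

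Vha36-1, the D subunit of the rotor, had the highest fold change of the members. Its lowest, median and highest levels over the lines were 236, 445 and 626 CPM in mature-like neurons, against 103, 106 and 153 CPM in other neurons. The lines did not overlap between the classes, and the log2 fold change was 2.03 ± 0.13 (SE, edgeR adjusted p = 1.24e-09). VhaAC45, an accessory subunit of V0, had 151, 244 and 318 CPM in mature-like neurons, against 51.6, 68.1 and 73.3 CPM in other neurons, a log2 fold change of 1.88 ± 0.15. Vha13 had 473, 978 and 1154 CPM in mature-like neurons, against 233, 260 and 380 CPM in other neurons, a log2 fold change of 1.78 ± 0.13. The d subunit VhaAC39-1 (1.79), the A subunit Vha68-1 (1.77), the B subunit Vha55 (1.73) and the c'' subunit VhaPPA1-1 (1.73) had similar log2 fold changes. Vha16-1, the ring subunit, had 838, 1193 and 1385 CPM in mature-like neurons, against 343, 391 and 509 CPM in other neurons, a log2 fold change of 1.5 ± 0.10.

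The increases of VhaSFD (1.05), Vha44 (1.08), VhaM9.7-a (1.10) and Vha100-1 (1.24) were smaller on the log2 scale. Over both libraries together, Vha44 was higher in clusters 30 (355 CPM) and 13 (352 CPM) of the other neurons than in cluster 3 (335 CPM). 12 of the 16 genes lay higher in mature-like neurons without overlap between the lines of the classes, beside 7.22% of all genes tested. The exceptions were VhaSFD, VhaM9.7-a, Vha100-1 and VhaM9.7-b, and for the first 3 the overlap came from line 45, which held 10 mature-like neurons. In line 45 the mature-like neurons were below the other neurons for these 3 genes. The levels were 43.0 against 61.8 CPM of VhaSFD, 322 against 370 CPM of VhaM9.7-a and 43.0 against 71.2 CPM of Vha100-1. The VhaSFD and Vha100-1 levels in the mature-like neurons of line 45 rest on only a few UMIs each. VhaM9.7-b was the lowest of the 16, with means of 134 ± 18.2 CPM in mature-like neurons and 105 ± 7.41 CPM in other neurons (SD, n = 7 lines) and a log2 fold change of 0.38 ± 0.14 (edgeR adjusted p = 0.0389). That call was lost in 13 of 15 alternative settings, among them the omission of any 1 line. In the fresh library, with no replicates, the log2 ratio of mature-like to other neurons was 2.15 for Vha36-1, 1.5 for Vha16-1 and 0.50 for VhaM9.7-b, and 1.51 for the 16 genes summed. In both libraries the mature-like neurons were also the deeper cells, at the median depths given above, and the part of depth in these differences was not tested.

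**Figure D3:**
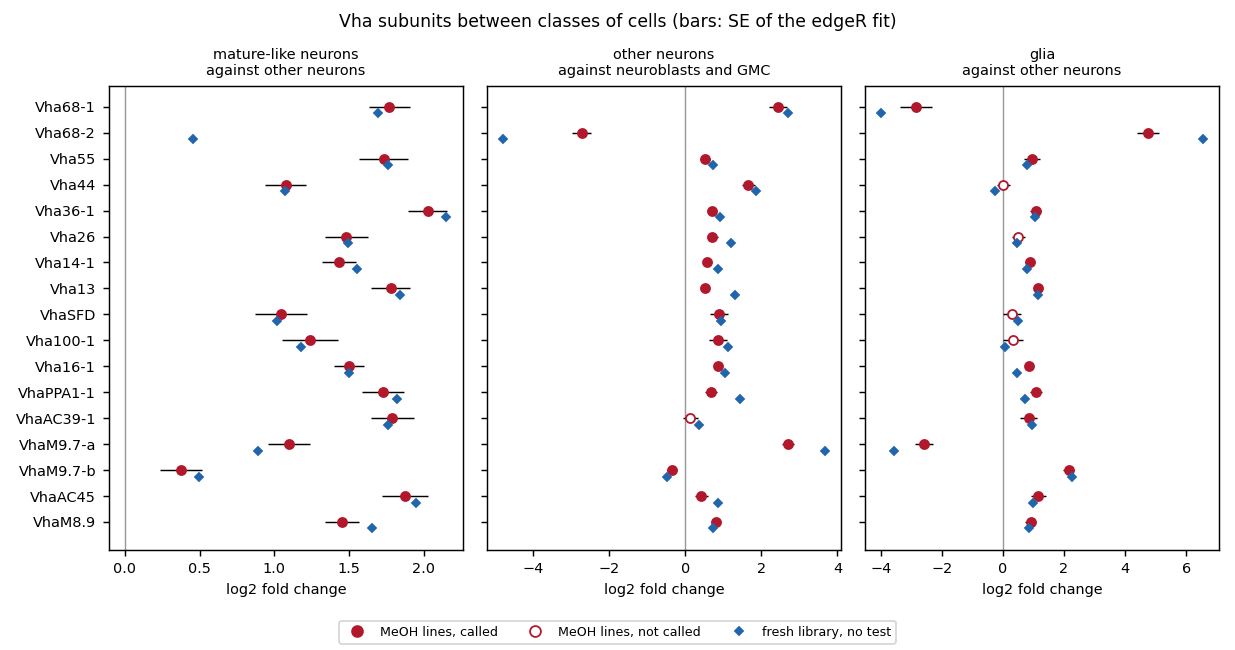
Log2 fold change of 17 Vha genes in mature-like against other neurons (left), other neurons against neuroblasts and GMC (middle) and glia against other neurons (right). Red circles are edgeR estimates over lines of the MeOH library with their SE, open where the adjusted p did not pass 0.05, and blue diamonds are the ratios in the fresh library. Vha68-1 and VhaM9.7-a lie opposite to Vha68-2 and VhaM9.7-b in the middle and right panels.

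Other neurons in turn differed from neuroblasts and GMC, with a much wider spread between the subunits. Over 7 lines, 14 of 17 tested members were higher in other neurons, 2 were lower and 1 was not called. Of all 4104 genes tested, 66% were called, 32.6% as higher and 33.4% as lower. The median log2 fold change of the 17 was 0.70, beside -0.028 over all genes. Both comparisons use the same other neurons of the MeOH library, so their values are not independent.

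VhaM9.7-a, a V0 e subunit, had the highest fold change. Its lowest, median and highest levels over the lines were 248, 282 and 370 CPM in other neurons, against 23.3, 39.5 and 82.0 CPM in neuroblasts and GMC. The classes did not overlap, and the log2 fold change was 2.70 ± 0.15 (edgeR adjusted p = 4.52e-11). Vha68-1 had 56.5, 63.2 and 75.7 CPM in other neurons, against 5.84, 9.41 and 20.2 CPM in neuroblasts and GMC, a log2 fold change of 2.44 ± 0.24. The C subunit Vha44 had 104, 133 and 144 CPM in other neurons, against 25.1, 35.4 and 62.0 CPM in neuroblasts and GMC, a log2 fold change of 1.66 ± 0.17.

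The other 11 increases lay between 0.42 (VhaAC45) and 0.88 (VhaSFD) on the log2 scale. VhaAC45 lost its call (adjusted p 0.0533 to 0.0590) without line 409, 45 or 502, and (0.166) without the 5% of cells with the most UMIs. The d subunit VhaAC39-1 had 63.3 ± 12.2 CPM in other neurons and 56.2 ± 20 CPM in neuroblasts and GMC (SD, n = 7 lines), with a log2 fold change of 0.13 ± 0.19 (edgeR adjusted p = 0.565).

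The A subunit Vha68-2 went the other way. It had 2.67, 6.68 and 10.3 CPM in other neurons, against 32.9, 36.4 and 52.7 CPM in neuroblasts and GMC, without overlap. Its log2 fold change was -2.73 ± 0.24 (edgeR adjusted p = 2.14e-08), and -1.61 with cluster 1 counted among the other neurons. VhaM9.7-b had a log2 fold change of -0.36 ± 0.13 (edgeR adjusted p = 0.0262), and this call was lost in 10 of 14 alternative settings. In the fresh library the log2 ratios were 3.68 for VhaM9.7-a, 2.71 for Vha68-1, 1.85 for Vha44, -4.79 for Vha68-2 and -0.48 for VhaM9.7-b. Vha68-2 passed the filter on low counts only through the precursors, where it is high. Vha68-1, VhaM9.7-a, VhaSFD and Vha100-1 would not have passed without the neurons. A difference of any of these genes follows in part from the filter.

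Glia were compared with other neurons in the 5 lines that had at least 10 glial cells, namely 45, 136, 409, 639 and 761. The glial class pools CTX, AST and ENS, and the comparison does not separate them. At the levels given above, the summed broad subunits stood well above other neurons in CTX. AST and ENS of the MeOH library were close to other neurons, and ENS of the fresh library was below them. 11 of 17 tested members were higher in glia, 2 were lower and 4 were not called. Of all 4266 genes tested, 47.3% were called, 22.6% as higher and 24.7% as lower. On simulated counts the false calls of this comparison went over the threshold, a limit for every glial call, also those of the lysosomal genes below. The median log2 fold change of the 17 was 0.88, beside -0.086 over all genes. As before, Vha68-2 passed the filter only through glia, and Vha68-1 and VhaM9.7-a would not have passed without the neurons.

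Vha68-2 differed most. In lines 45, 136, 409, 639 and 761 it had 135, 263, 99.8, 159 and 103 CPM in glia, against 4.03, 8.50, 6.68, 2.67 and 10.3 CPM in other neurons. Every glial value lay above every neuronal value, and the log2 fold change was 4.75 ± 0.36 (edgeR adjusted p = 7.32e-09), and 3.84 with cluster 1 counted among the other neurons. The e subunit VhaM9.7-b had 258, 357, 414, 405 and 506 CPM in glia, against 106, 105, 110, 92.6 and 105 CPM in other neurons of the same lines, a log2 fold change of 2.15 ± 0.18. These are the paralogs of Vha68-1 and VhaM9.7-a, which were lower in glia.

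Vha68-1 had 0, 18.8, 0, 8.81 and 7.33 CPM in glia of the same lines, against 60.5, 75.7, 72.1, 63.2 and 67.5 CPM in other neurons. Only 4 Vha68-1 UMIs stood behind the glial values, and the log2 fold change was -2.86 ± 0.52 (edgeR adjusted p = 0.000206), and -3.47 without line 136. VhaM9.7-a had 22.4, 84.7, 71.3, 17.6 and 29.3 CPM in glia, against 370, 255, 343, 274 and 321 CPM in other neurons, a log2 fold change of -2.59 ± 0.30, and -3.51 with at least 20 cells per line and class. Neuronal markers were also present in glia, at 490 CPM against 2406 CPM in other neurons of the MeOH library, and their part in the low glial values was not tested.

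Among the other broad subunits, the G subunit Vha13 (log2 1.15), VhaAC45 (1.15), VhaPPA1-1 (1.08), Vha36-1 (1.07), VhaM8.9 (0.90), Vha14-1 (0.88) and Vha16-1 (0.86) were higher in glia of every line, without overlap, as were Vha68-2 and VhaM9.7-b, 9 of 17 in all. Of all genes tested, 13.5% lay higher in glia without overlap. VhaM8.9 (0.74) and Vha14-1 (0.76) lost their calls when at least 20 cells per line and class were asked for. Vha55 (0.95) and VhaAC39-1 (0.84) were also called, with overlapping lines, and VhaAC39-1 was higher in glia of 3 of the 5 lines. Vha55 lost its call in 3 of 12 alternative settings, at 0.59 without line 409, at 0.60 without the 5% of cells with the most UMIs and at 0.66 with at least 20 cells. VhaAC39-1 lost its call in 8 of 12, among them without line 136 (0.87), 409 (0.62) or 639 (0.59). VhaSFD, Vha26, Vha44 and Vha100-1 had log2 fold changes of 0.29 ± 0.31, 0.50 ± 0.21, 0.0057 ± 0.21 and 0.33 ± 0.32 and were not called. In the fresh library the log2 ratio of glia to other neurons was 6.56 for Vha68-2, 2.24 for VhaM9.7-b, -4.0 for Vha68-1, -3.55 for VhaM9.7-a and -0.25 for Vha44.

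**Figure D4:**
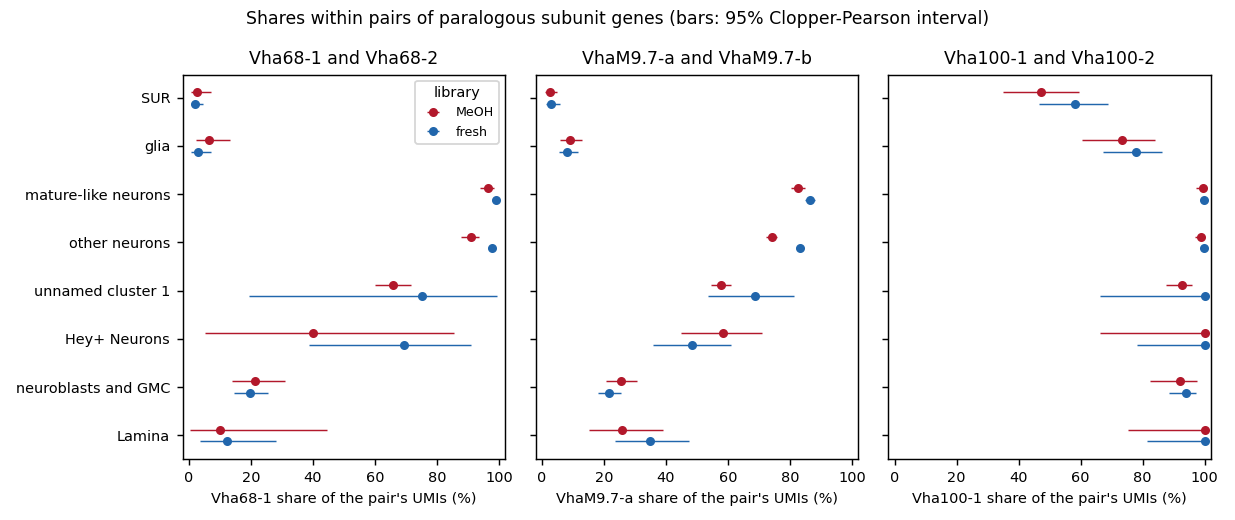
Share of the first gene of each pair in the UMIs of both genes, in percent, by class of cells, for the MeOH library (red) and the fresh library (blue), with 95% Clopper-Pearson intervals. Vha68-1 and VhaM9.7-a hold under 10% of their pairs in SUR and glia and over 74% in mature-like and other neurons.

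The more abundant paralog of the A and e subunits differed between classes of cells. The share of Vha68-1 in the UMIs of Vha68-1 and Vha68-2 was 6.32% (Clopper-Pearson 95% interval 2.35 to 13.2) in glia, 96.6% (94.0 to 98.3) in mature-like neurons, 91.0% (87.9 to 93.5) in other neurons and 21.4% (13.8 to 30.9) in neuroblasts and GMC of the MeOH library. In the fresh library the same shares were 2.86%, 99.0%, 97.8% and 19.5%. Over the 7 lines, of which lines 382 and 502 had 9 glial cells each, the share ran from 0 to 20% in glia, 91.8 to 100% in mature-like neurons, 86.8 to 95.9% in other neurons and 10.5 to 33.3% in neuroblasts and GMC. Neither neuronal range overlapped the glial or the precursor range in any line.

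The e subunits followed the same order. VhaM9.7-a made up 9.06% (6.0 to 13) of the VhaM9.7-a and VhaM9.7-b UMIs in glia, 82.7% (80.2 to 84.9) in mature-like neurons, 74.2% (72.5 to 76.0) in other neurons and 25.4% (20.7 to 30.5) in neuroblasts and GMC of the MeOH library. The fresh library gave 8.15%, 86.7%, 83.2% and 21.6%. Over the lines these shares ran from 4.17 to 19.1% in glia, 71.4 to 85.1% in mature-like neurons, 68.2 to 77.7% in other neurons and 14.8 to 32.7% in neuroblasts and GMC. Since these pairs were singled out after their values were seen, the shares are given as a description.

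Within the precursors the pairs were uneven. In Type II neuroblasts Vha68-1 held 8.11% (1.70 to 21.9) of its pair in the MeOH library and 4.65% (1.28 to 11.5) in the fresh library. In CB GMC it held 33.3% (9.92 to 65.1) of 12 MeOH UMIs and 58.1% (39.1 to 75.5) of 31 fresh UMIs, and in OL GMC 80% (44.4 to 97.5) of 10 MeOH UMIs and 36.4% (17.2 to 59.3) of 22 fresh UMIs. Both GMC names rest on few UMIs, and their intervals overlap. VhaM9.7-a held 9.32% of its pair in Type II neuroblasts and 36.3% in OL Type I NB of the MeOH library, and 6.45% and 25.6% in the fresh library. The Type II interval lay below that of OL Type I NB in both libraries.

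The a subunits differed less. Vha100-1 made up 73.3% (60.3 to 83.9) of the Vha100-1 and Vha100-2 UMIs in glia, 99.5% in mature-like neurons, 98.7% in other neurons and 92.1% in neuroblasts and GMC of the MeOH library. The fresh library gave 77.8%, 99.7%, 99.8% and 93.9%. Over the lines the share ran from 28.6 to 100% in glia, 97.7 to 100% in mature-like neurons, 96 to 100% in other neurons and 83.3 to 100% in neuroblasts and GMC, so the ranges overlapped. Vha100-2 itself had 25.6 CPM in glia and 0.832 CPM in other neurons of the MeOH library, from 16 and 5 UMIs. VhaM9.7-c was likewise higher in glia, with 30.4 CPM against 2.0 CPM in other neurons of the MeOH library and 22.9 against 2.09 CPM in the fresh library, a position it shares with Teh2. Both genes were too low for the test over lines.

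**Figure D5:**
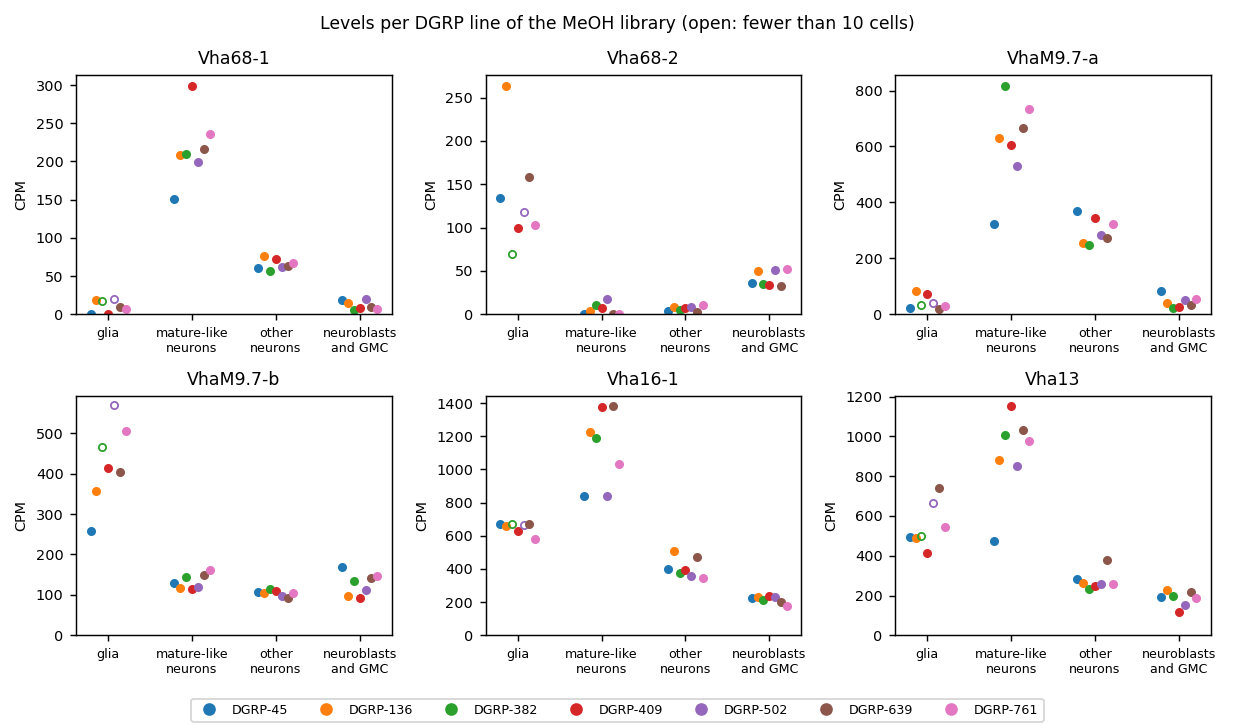
Levels in CPM of 6 Vha genes per DGRP line of the MeOH library, in glia, mature-like neurons, other neurons, and neuroblasts and GMC. Each point is 1 line, open where the class had fewer than 10 cells. Vha68-2 and VhaM9.7-b stand highest in glia, and the medians of the remaining 4 genes in mature-like neurons.

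SUR, a cell name of the deposited metadata that is not spelled out there, had the highest Vha68-2 and Vha100-2 levels of the annotations with at least 30 cells. Vha68-2 reached 276 CPM (228 to 332) in MeOH cells and 373 CPM (325 to 426) in the fresh library, and Vha100-2 reached 86.5 and 58.1 CPM. Vha68-1 was at 7.21 and 6.84 CPM and VhaM9.7-a at 19.2 and 13.7 CPM in SUR of the MeOH and fresh libraries. Markers of hemocytes, the blood cells of the fly, were all detected in SUR (4 of 4). They summed to 175 CPM in the MeOH library and 1113 CPM in the fresh library, against 0 and 2.41 CPM in glia. The marker UMIs of SUR came from 2 of 67 MeOH cells and 12 of 38 fresh cells. He alone had 819 CPM in the fresh library, and NimC1, unlike the other markers, was higher in the MeOH library (60.0 against 10.3 CPM). In SUR cells without a hemocyte UMI, 65 MeOH and 26 fresh cells, Vha68-2 was at 268 and 465 CPM and Vha100-2 at 86.7 and 67.8 CPM. The summed broad subunits in those cells were 6511 and 6530 CPM.

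The MeOH and fresh libraries were set side by side in other neurons. Strain and fixation differed together with 1 library each, so their parts cannot be told apart and no test was made. The 16 broad genes summed to 2316 CPM in the MeOH library and 2734 CPM in the fresh library, a ratio of 0.847 (exact 95% interval 0.830 to 0.864). The median log2 ratio of the 16 was -0.18, beside -0.10 over the 5438 genes at 10 CPM or more, and their ratios ran from 0.701 (Vha26) to 1.39 (VhaM9.7-b). Intervals lay below 1 for 9 genes and above 1 for 2, VhaM9.7-b and Vha55, and covered 1 for 5, beside 39% of the 5438 genes below 1 and 26.5% above 1. Relative to the median of all genes, 10 of the 16 were lower in the MeOH library and 6 were higher. Vha68-2 stood apart with 6.66 CPM (40 UMIs) in MeOH cells and 1.74 CPM (20 UMIs) in the fresh library, a ratio of 3.82 (2.18 to 6.90). Glial markers in the same other neurons summed to 88.9 CPM in the MeOH library and 71.0 CPM in the fresh library, and their part in this ratio was not tested.

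In other neurons the highest of the 7 lines stood 1.28-fold above the lowest. The broad genes summed to 2275 ± 207 CPM (SD, n = 7 lines), from 2066 CPM in line 382 to 2638 CPM in line 639, with a median of 2171 CPM. Neuroblasts and GMC varied less, at 1242 ± 53.0 CPM. Mature-like neurons had 6192 ± 1224 CPM, with the lowest value, 3954 CPM, in line 45. With 1 sample per line no test between lines was made.

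Other genes that work with the pump were read from lists chosen with earlier results of these data known. The proton-driven vesicular transporters VGlut, VAChT, VGAT and Vmat, which load glutamate, acetylcholine, GABA and monoamines into vesicles, were all called higher in mature-like neurons than in other neurons, 4 of 4 tested, beside 22.6% of all genes. Their log2 fold changes were 0.88 ± 0.25, 0.88 ± 0.20, 0.62 ± 0.22 and 3.73 ± 0.58, with a median of 0.88. Vmat was uneven, from 0 to 1368 CPM over the lines in mature-like neurons and from 0 to 89.9 CPM in other neurons. Of the 7 lines, 6 had higher VGlut and 6 higher VGAT in mature-like neurons, 5 higher VAChT and 4 higher Vmat. Vmat would not have passed the filter without the mature-like neurons, so its difference follows in part from the filter. The mature-like class was itself chosen by synaptic markers. VGlut, VAChT and VGAT were also higher in other neurons than in neuroblasts and GMC (3 of 3 tested, log2 3.53, 4.02 and 4.93) and lower in glia than in other neurons (3 of 3, log2 -3.72, -3.33 and -3.99). These 3 genes would not have passed the filter without the neurons, with 92, 10 and 2 UMIs in neuroblasts and GMC and 20, 4 and 1 UMIs in glia, so these differences follow in part from the filter. Vmat was too low for those 2 comparisons, and prt for all 3.

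Most lysosomal genes were higher in glia, 8 of 9 tested against other neurons beside 22.6% of all genes, with a median log2 fold change of 1.64. The lysosomal sterol carrier Npc2a had 2443 CPM in glia and 43.0 CPM in other neurons on average over 5 lines (log2 6.01 ± 0.29), and the protease cathD had 1593 and 262 CPM (2.85 ± 0.12). Only ClC-b, a chloride transporter, was not called (0.64 ± 0.31). The listed gene trpml had no UMI in any class of either library and was not tested. Npc2a and spin, another gene of the list, had lowest line values of 17.5 and 10.0 CPM in other neurons. Neither would have passed the filter without the glia, so their differences follow in part from the filter. In mature-like neurons 4 of 8 tested were higher than in other neurons, beside 22.6% of all genes, namely cathD (0.67), Cp1 (1.61), CtsB1 (0.93) and the membrane protein Lamp1 (0.93), with a median of 0.54 over the 8. Between other neurons and precursors 1 of 8 was higher (cathD, 0.45) and 3 were lower, the proteases Cp1 (-0.91), CtsB1 (-0.97) and CtsF (-0.38), with a median of -0.16. Of all genes 66% were called in that comparison, 33.4% as lower, so these counts do not stand above the background. Of the assembly factors, Rbcn-3A was higher in mature-like neurons (35.1 CPM against 20 CPM, log2 0.86 ± 0.26, adjusted p = 0.0145), Rbcn-3B was too low in all 3 comparisons, and Mitf, a transcription factor of lysosomal genes, was tested between glia and other neurons alone (0.46 ± 0.55, adjusted p = 0.519). Without the mature-like neurons Rbcn-3A would not have passed the filter, so its difference follows in part from the filter.

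Across the 33 annotations with at least 30 cells, the genes whose levels ordered most like the summed broad subunits were sought among 2300 genes at 50 CPM or more in both libraries. Gabat, a GABA transaminase, had the highest Spearman's rho (0.90), with 8.31 CPM in Type II neuroblasts and 917 CPM in SUR. Next came Fer1HCH, the ferritin heavy chain (0.89), Vps60 (0.89), CG11151 (0.88) and CG8498 (0.86), followed by the ferritin light chain Fer2LCH, CG5946, MESR6, betaggt-II and ND-B22 at 0.84 to 0.80. Fer1HCH was lowest in Hey+ Neurons (120 CPM) and highest in CTX (2775 CPM). The annotations share libraries and clustering, so these values are a description.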

How the data were processed

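The authors' deposited matrices hold raw UMI counts per gene and cell barcode, and their metadata table gives each cell's total count, library, line and annotation. Cell Ranger, Seurat and build dm6 are named, without versions, per the submitters' processing notes. Gene positions come from Ensembl release 115, and symbols were matched by name or synonym. Only listed cells were used. No doublet caller was run, and how doublets were treated before deposit is not given in the sources used here.

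The members, classes and gene lists were chosen with earlier results of these data known. By their markers the unnamed clusters 1 and 31 would count as neuronal (5 and 4 of 7 markers), and they were kept apart after the data were seen. Counts were summed per line and class (at least 10 cells), filtered with filterByExpr, scaled with TMM and tested with edgeR 4.0.16 (glmQLFit, glmQLFTest, line as block, Benjamini-Hochberg over all genes tested, threshold 0.05). The SE is the size of the log2 fold change divided by the square root of F. Per line, summed counts ran from 937165 to 2834779 UMIs over all cells. The fits were tested on simulated data, where false calls stayed under the threshold except between glia and other neurons. The simulated counts had the same dispersion for all genes and no differences between lines, so they cannot give the rate of false calls in the real fits. DESeq2 1.42.0 and other settings were alternatives.

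Every Vha gene is named. Values per line were planned for genes at 50 CPM or more that are called or have a paralog. Those of Vha68-2, Vha100-2 and VhaM9.7-c, which are lower, were added after their values were seen.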

Additional observations from a re-analysis of the deposited data

Results flagged for a closer look

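In 5 cases 1 of 7 lines stood far from the others by Dixon's criterion at 95%, out of 70 groups examined, where chance marks about 5%. In other neurons, line 639 had 380 CPM of Vha13 and 153 CPM of Vha36-1, the highest of the lines. Line 45, with 10 mature-like neurons, had the lowest difference between mature-like and other neurons (log2 of CPM + 10) for VhaSFD (-0.44, other lines 0.66 to 1.28), Vha100-1 (-0.62, other lines 0.79 to 1.56) and Vha36-1 (0.90, other lines 1.76 to 2.19). Without line 45 the calls of these 3 genes between mature-like and other neurons held. The VhaSFD and Vha100-1 levels in the mature-like neurons of line 45 rest on only a few UMIs each.

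Barcodes outside the deposited metadata, which enter no comparison, also held V-ATPase transcripts. The 16 broad subunits summed to 2419 CPM (95% interval 2383 to 2456) in 1192 MeOH barcodes with a median of 3094 UMIs, against 2767 CPM in the listed MeOH cells. In 76 fresh barcodes with a median of 40565 UMIs they summed to 2420 CPM (2369 to 2472), against 3066 CPM in the listed fresh cells.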

How the results depend on the processing

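No paired analysis was possible because each of the MeOH and fresh groups has 1 library. The line block within the MeOH library was part of each fit, and without it the counts of called members stayed at 16, 16 and 13. Members called ranged from 15 to 16 over all alternatives between mature-like and other neurons, 13 to 16 between other neurons and neuroblasts and GMC, and 9 to 14 between glia and other neurons, with 9 at 20 cells per line and class, where fewer lines remain. Over single genes and settings, 630 values kept direction and call, 40 lost the call and 11 turned sign. The lost calls were VhaM9.7-b (13 and 10 settings), VhaAC39-1 in glia (8), VhaAC45 against precursors (4), and in glia Vha55 (3), VhaM8.9 (1) and Vha14-1 (1).

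Every sign turn concerned genes not called in glia against other neurons. Vha44 was at -0.12 with RLE factors, -0.12 with DESeq2, -0.24 without a filter, -0.24 at 20 cells per class, -0.18 without the 5% of cells with the most UMIs, and -0.13 to 0.085 when 1 line was left out. VhaSFD was at -0.047 at 20 cells per class, and Vha100-1 at -0.015 to 0.54 when 1 line was left out. The cause was not tested.

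The log2 ratio of MeOH to fresh for the summed broad genes moved to -0.15 over all listed cells and to -0.14 when centred on the median of all genes, against -0.24 as reported. With limits of 100 and 2 CPM, 11 genes were broad and 14 near zero. Mature-like neurons from cluster 3 alone, an alternative chosen after seeing the data, gave 15 called members. Few glial cells limit the glial values, where Vha68-1 rests on 4 UMIs.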

Other observations

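A further gene of the family has a symbol outside the rule. CG31030, named VhaAC45RP (a relative of the accessory subunit VhaAC45) in the current annotation, had 157 CPM in the MeOH library and 214 CPM in the fresh library. It was at 9.61 CPM (3.53 to 20.9) in glia, 444 CPM (410 to 481) in mature-like neurons, 177 CPM (167 to 188) in other neurons and 25.9 CPM (19.1 to 34.3) in neuroblasts and GMC of the MeOH library. The fresh library gave 14.5, 616, 236 and 32.8 CPM in the same order. VhaAC45 itself was at 123 CPM in glia and 67.4 CPM in other neurons on average over 5 lines, so the pair had opposite orders between these classes.

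The classes kept apart had these levels of the summed broad subunits. Hey+ Neurons had 1719 CPM (1518 to 1938) in MeOH cells and 1357 CPM (1236 to 1486) in the fresh library, and Lamina had 1264 and 1538 CPM. VhaM9.7-a held 58.3% (44.9 to 70.9) of its pair in Hey+ Neurons and 25.9% (15.3 to 39.0) in Lamina of the MeOH library, and 48.5% and 34.8% in the fresh library. The unnamed cluster 1, with 397 MeOH and 13 fresh cells, had 2568 MeOH and 2688 fresh CPM, and Vha68-1 held 65.9% (59.8 to 71.6) of its pair there in the MeOH library. Cluster 33, with 19 MeOH and 6 fresh cells, had the highest sums, 8023 CPM (7603 to 8460) and 8289 CPM (7820 to 8778).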
